A study of Mus musculus with 136 samples.

Results

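The expression of 10 transcription factors of the blood lineages, Gata1, Gata2, Klf1, Tal1, Lmo2, Runx1, Nfe2, Gfi1b, Lyl1 and Spi1, was followed in mouse concepti at embryonic day 8.5. The genes were taken from the count table by their symbols, and all 10 were found among its 47643 genes. Embryo and visceral yolk sac of 66 concepti, matched by the labels, had been profiled apart, which gave 132 libraries. All animals were of the NOD strain, the non-obese diabetic mouse, in which females become hyperglycemic spontaneously. No other allele or agent is named for any group. The dams of normal pregnancies had blood glucose levels of 105 to 164 mg/dl when they were killed, and the dams of diabetic pregnancies had levels of 423 to 595 mg/dl, with no number given for 1 diabetic litter. At the earlier stage, with 5 or 6 somite pairs, 10 normal litters supplied 17 concepti and 9 diabetic litters another 17. At the later stage, with 7 to 9 somite pairs, there were 16 concepti from 7 normal litters and 16 from 6 diabetic litters, 7 of the latter from the single litter D24M15. Concepti of 1 litter shared a dam, so that they were not fully independent.

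Blood forms first in the visceral yolk sac, where mesodermal blood islands give rise to primitive red cells before a heartbeat carries them into the embryo. Gata1 is the zinc finger factor that red cells and megakaryocytes require, and it binds many red cell genes together with Klf1, an activator of globin genes. Tal1, a basic helix-loop-helix factor, is joined to Gata factors by the bridging protein Lmo2, and it is needed for the first blood cells of any kind. Tal1 and Lmo2 are also made in endothelium, and Gata2 is made in trophoblast giant cells as well as in blood progenitors.

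Promoter sequences are shown for 4 of the genes because the GATA motif, the site that Gata factors recognize, occurred in some of these windows and not in others. The sequences are from RefSeq on the build GRCm38.p6 and run from 250 bases before to 50 bases after the annotated start. The windows are chr8:84901732-84902031 on the plus strand for Klf1, chr2:28621933-28622232 on the minus strand for Gfi1b, chr4:115056176-115056475 on the plus strand for Tal1 and chrX:7967861-7968160 on the minus strand for Gata1. Capitals mark a match, on either strand, to AGATAA or its form AGATAG, or else to TGATAA or its form TGATAG.
Klf1: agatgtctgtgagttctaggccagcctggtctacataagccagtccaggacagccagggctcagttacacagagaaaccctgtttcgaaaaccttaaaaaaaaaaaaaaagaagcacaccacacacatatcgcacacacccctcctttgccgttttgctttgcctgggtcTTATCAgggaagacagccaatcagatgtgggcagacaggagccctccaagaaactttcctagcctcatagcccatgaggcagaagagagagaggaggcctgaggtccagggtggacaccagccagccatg
Gfi1b: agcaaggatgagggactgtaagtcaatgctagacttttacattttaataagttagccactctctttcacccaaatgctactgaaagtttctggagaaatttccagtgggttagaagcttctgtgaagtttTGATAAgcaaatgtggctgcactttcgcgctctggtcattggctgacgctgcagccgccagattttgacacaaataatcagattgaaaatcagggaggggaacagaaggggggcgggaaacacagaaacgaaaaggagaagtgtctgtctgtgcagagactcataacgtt
Tal1: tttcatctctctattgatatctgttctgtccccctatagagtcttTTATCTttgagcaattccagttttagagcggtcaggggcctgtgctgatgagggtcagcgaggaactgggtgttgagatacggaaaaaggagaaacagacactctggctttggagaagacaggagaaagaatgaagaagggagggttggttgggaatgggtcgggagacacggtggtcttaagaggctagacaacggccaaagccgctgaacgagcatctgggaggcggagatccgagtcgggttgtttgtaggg
Gata1: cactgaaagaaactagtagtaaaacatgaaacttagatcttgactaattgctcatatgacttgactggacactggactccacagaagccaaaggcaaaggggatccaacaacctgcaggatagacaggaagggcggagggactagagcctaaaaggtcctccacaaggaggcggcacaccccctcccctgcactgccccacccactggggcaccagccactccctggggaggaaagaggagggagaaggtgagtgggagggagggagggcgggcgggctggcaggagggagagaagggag
The match lay at position -80 relative to the start in Klf1, at -120 in Gfi1b and at -205 in the Tal1 window shown. No match was present in the Gata1 window or in a second Tal1 window, chr4:115057561-115057860 on the plus strand, which is not shown. RefSeq promoters were matched for 7 of the 10 genes, with 10 promoters in all, and 3 of these 10 held a GATA match. Among all 32851 mouse promoters of the same length 29.8% held one, so the share in these genes was near the background. The motif CCACCC, a form of the sequence bound by Klf1, was found in 3 of the 10 promoters and in 31.5% of all, and the E-box CANNTG, the kind of site bound by Tal1 with its partners, in 7 of the 10 and in 72.3% of all. Both were searched on both strands, and an E-box can share letters with a GATA match.

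Libraries held between 1017901 and 5658850 counts, with a median of 2302819. Markers of visceral endoderm, the layer that clads the yolk sac, summed to 10372 to 53508 normalized counts in yolk sacs and to 96.3 to 3362 in embryos, and all 8 markers of the embryo proper were lower in yolk sacs at both stages. Counts of sex-linked genes went with the sex label in 136 of 136 libraries, duplicates included, but embryo and yolk sac of 2 of 66 concepti, D28M27C and N28M07E, carried labels of unequal sex. By these labels and counts the embryo and yolk sac of either number are not of 1 conceptus, and counts within concepti are also given without them. The yolk sac of conceptus D28M36C stood apart, with the lowest total of all libraries and a size factor of 0.302, below the next lowest of 0.448. Normalized counts are counts of molecules divided by the library's size factor, and since each molecule is counted once near its 3′ end, levels of different genes were compared on this scale without correction for length.

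The red cell factors Gata1, Klf1 and Nfe2, and with them Runx1, were counted in every yolk sac and were low in embryos, at a mean of at most 3.18 normalized counts at either stage. At both stages the lowest yolk sac lay above the highest embryo for these 4 genes, as it did for 6.91% of all genes tested in earlier and 7.74% in later concepti. Gfi1b, which was not tested, did not overlap at the earlier stage either. Gata2, Tal1, Lmo2, Lyl1 and Spi1 were also higher in yolk sacs, but their values overlapped between the tissues. In bulk tissue a smaller number of cells of a type and less RNA per cell cannot be told apart. By edgeR, with an adjusted p under 0.05 as the call, 8 genes of the 10 were tested and all 8 were higher in yolk sacs at each stage, beside 38.5% of all genes tested called higher at 5 to 6 and 39.1% at 7 to 9 somite pairs. Of these 8, Gata1, Gata2, Klf1, Runx1, Nfe2 and Lyl1 did not pass the filter within the embryos of either stage and entered the test through their level in yolk sacs, so that a difference was built into their selection. The count of calls and that of genes without overlap therefore carry no weight, and the levels below are what was measured.

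**Figure D1:**
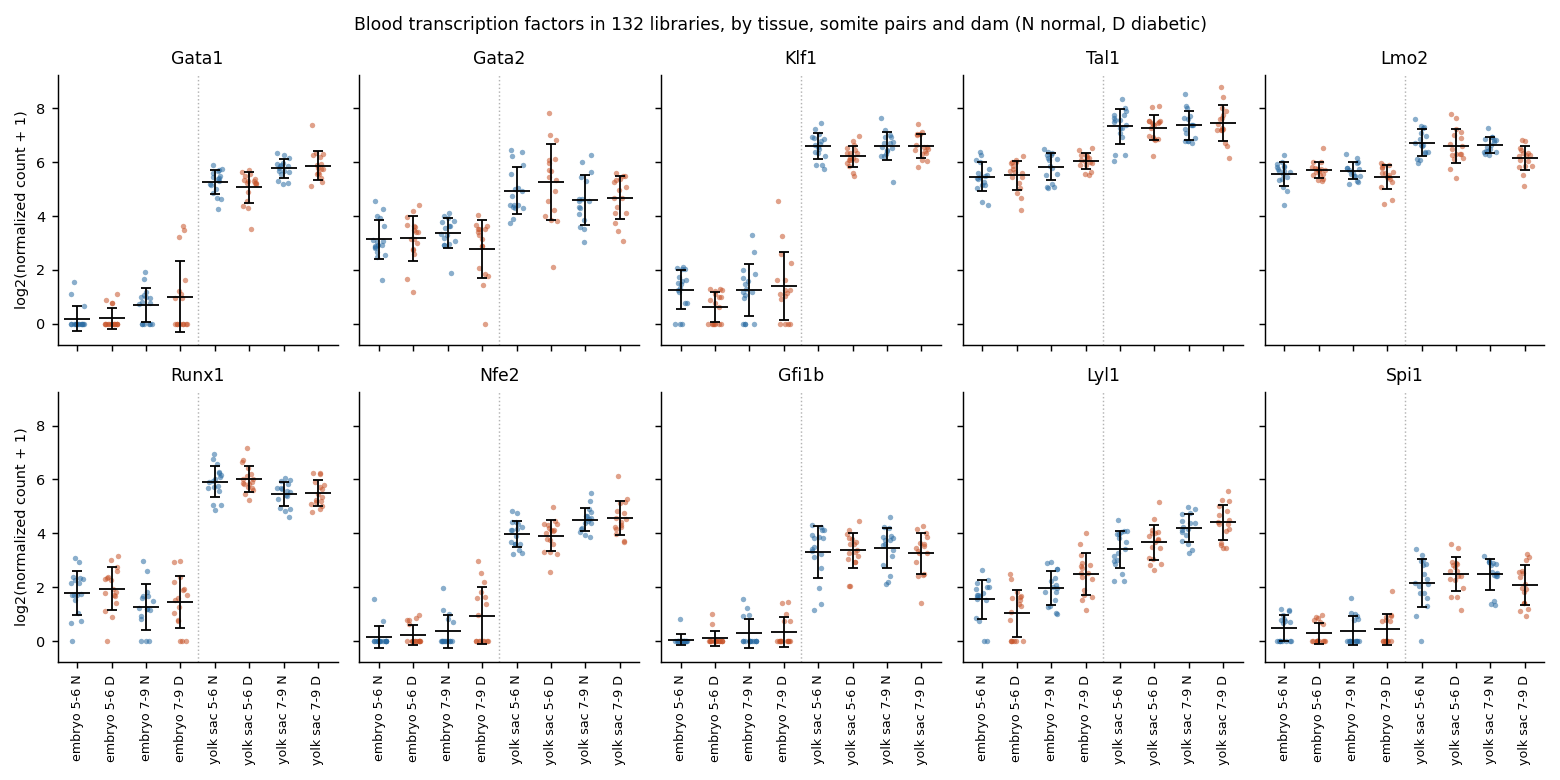
Each point is 1 of 132 libraries, with log2(normalized count + 1) on the vertical axis and the 8 groups of tissue, number of somite pairs and maternal condition (N normal, D diabetic) on the horizontal axis; bars give mean and SD. Gata1, Klf1, Nfe2 and Runx1 fill separate ranges in embryos and yolk sacs, while Tal1 and Lmo2 are well above 0 in both tissues.

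Gata1 lies at chrX:7959260-7978071 on the minus strand of GRCm38. In yolk sacs of normal pregnancies at the earlier stage its normalized count ranged from 18.4 over a median of 40.6 to 59.2, and in diabetic pregnancies from 10.6 over 36.7 to 50.8. At the later stage the values were 35.1, 55.5 and 79.6 under normal and 33.5, 53.2 and 165 under diabetic conditions. No count of Gata1 was obtained in 27 of 34 earlier and in 14 of 32 later embryos, and the highest embryo reached 1.95 at 5 to 6 and 11.4 at 7 to 9 somite pairs. Every yolk sac thus exceeded every embryo. In earlier concepti the log2 fold change of yolk sac over embryo was 6.98 (SE 0.21), which is 126-fold, and in later ones it was 5.09 (SE 0.23), or 34.0-fold, given as a size and not as a test because of that selection.

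Klf1, at chr8:84901928-84905291 on the plus strand, was the more abundant of the red cell factors. Its yolk sac levels were 52.1, 97.8 and 174 (lowest, median and highest) in earlier normal and 43.8, 69.9 and 123 in earlier diabetic pregnancies. They were 37.5, 98.7 and 196 in later normal and 55.4, 91.2 and 172 in later diabetic pregnancies. The 2 conditions overlapped widely at both stages. Embryos reached at most 3.29 at 5 to 6 and 22.8 at 7 to 9 somite pairs, and the log2 fold changes of yolk sac over embryo were 6.18 (SE 0.16) and 5.14 (SE 0.22).

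Nfe2 is the larger subunit of a factor that acts at globin control regions together with a small Maf protein, and it lies at chr15:103248212-103258403 on the minus strand. Its level was lower, with medians of 16.3 and 15.9 in earlier normal and diabetic yolk sacs and of 21.5 and 21.4 in later ones, over a range of 4.89 to 69.5 in all 66. Embryos had a count in 7 of 34 earlier and 13 of 32 later libraries, up to 6.81. Gfi1b, a repressor of red cell and megakaryocyte precursors at chr2:28609450-28621982 on the minus strand, ranged from 1.23 to 23.5 in yolk sacs, with medians of 9.97 at 5 to 6 and 10.8 at 7 to 9 somite pairs. It was counted in 3 of 34 earlier and 9 of 32 later embryos, never above 1.95, and was left out of the tissue comparison by the filter on low counts. Tested without that filter, where 20.7% and 21.9% of all genes were called higher, its log2 fold change was 5.88 (SE 0.29) in earlier and 4.58 (SE 0.29) in later concepti, and both were called.

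Runx1 marks endothelium that gives rise to the lasting blood stem cells and is also made in early yolk sac blood. It covers chr16:92601466-92826149 on the minus strand, and an antisense gene, Gm26626, overlaps it, whose reads cannot be told apart where the counting ignored strand. Yolk sac levels were 28.2, 60.2 and 121 in earlier normal, a median of 58.3 and a highest value of 143 in earlier diabetic, 23.5, 45.8 and 65.9 in later normal and 26.4, 41.0 and 74.4 in later diabetic pregnancies. The highest embryo was at 7.83. The excess of yolk sac over embryo was nearly equal at the stages, with log2 fold changes of 4.38 (SE 0.17) and 4.41 (SE 0.18).

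Tal1 and Lmo2, which also mark endothelium, were the highest of the 10 genes in embryos. Tal1, at chr4:115056426-115071755 on the plus strand, was at medians of 42.6 in earlier normal, 49.0 in earlier diabetic, 61.8 in later normal and 65.5 in later diabetic embryos, over a range of 17.7 to 91.2. In yolk sacs its medians were 180, 171, 166 and 162 in the same order, over a range of 65.0 to 444. Single embryos and yolk sacs overlapped, yet in 34 of 34 earlier and 32 of 32 later concepti the yolk sac exceeded the embryo of the same number, and in 33 of 33 and 31 of 31 without the concepti of unequal sex labels. The log2 fold changes were 1.88 (SE 0.12) and 1.56 (SE 0.13).

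Lmo2, at chr2:103957986-103981878 on the plus strand, differed least between the tissues. Its medians were 49.4, 50.7, 49.9 and 46.1 in embryos, against 99.3, 88.0, 95.9 and 75.1 in yolk sacs, in the same order of groups. The yolk sac exceeded the embryo of the same number in 33 of 34 and 29 of 32 cases, or in 32 of 33 and 28 of 31 with the same omission. The log2 fold changes were 1.15 (SE 0.12) and 0.85 (SE 0.09). The gene 4931422A03Rik overlaps Lmo2 on the opposite strand, and the strand setting of the counting is not given in the sources used here.

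Gata2 and Lyl1 were intermediate. Gata2, at chr6:88193891-88207032 on the plus strand, was counted in 65 of 66 embryos at up to 22.7 and ranged from 3.28 to 228 in yolk sacs, with log2 fold changes of yolk sac over embryo of 2.31 (SE 0.25) and 1.70 (SE 0.19). It had the widest spread of these genes in yolk sacs of earlier diabetic pregnancies, at a mean of 56.7 with an SD of 56.1 (n = 17). Lyl1, a close relative of Tal1 at chr8:84701457-84704715 on the plus strand, ranged from 3.68 to 46.3 in yolk sacs and up to 15.3 in embryos, with log2 fold changes of 2.69 (SE 0.22) and 2.27 (SE 0.17). Nfix overlaps it on the opposite strand.

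Spi1, the Ets factor of myeloid cells that counteracts Gata1, lies at chr2:91082390-91115756 on the plus strand and was the lowest of the 10 in yolk sacs. Its yolk sac medians were between 3.12 and 5.08 in the 4 groups, with a highest value of 11.1, and embryos reached 2.60. The filter left it out of every comparison. Without the filter the log2 fold change of yolk sac over embryo was 3.30 (SE 0.27) at 5 to 6 and 2.97 (SE 0.28) at 7 to 9 somite pairs. Of 12 markers of macrophages and myeloid cells, only Mrc1 and Fcgr3 reached a mean level of 10 normalized counts or more in yolk sacs. The defining genes Ptprc, Adgre1 and Itgam had a count in 9, 2 and 4 of 66 yolk sacs, and Csf1r averaged 2.16 and 3.72 at the 2 stages.

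**Figure D2:**
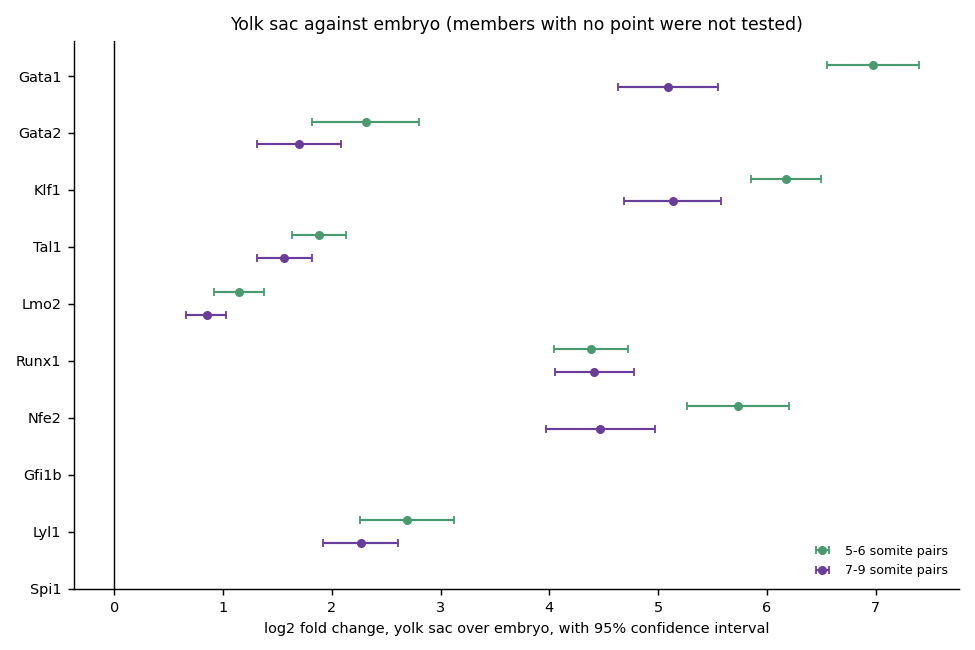
Points give the log2 fold change of yolk sac over embryo from edgeR for each gene tested, with 95% confidence intervals, at 5 to 6 and 7 to 9 somite pairs. The values run from 0.85 for Lmo2 at the later to 6.98 for Gata1 at the earlier stage, and Gfi1b and Spi1 have no point because they did not pass the filter.

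Expressed as the mean of embryos in percent of the mean of yolk sacs, the genes formed a graded series. Gata1 was at 0.570% at 5 to 6 and 2.60% at 7 to 9 somite pairs, Klf1 at 1.31% and 2.58%, Nfe2 at 1.21% and 4.01%, and Gfi1b at 0.658% and 3.25%. These low values compare with medians of 3.40% and 3.52% over the red cell genes listed and of 2.80% and 1.99% over markers of visceral endoderm. Runx1 followed at 4.82% and 4.54%, Spi1 at 7.90% and 9.94%, and Lyl1 at 15.3% and 21.4%. Gata2 at 19.8% and 30.9%, Tal1 at 27.9% and 34.0% and Lmo2 at 46.5% and 55.6% were the highest of the series. The medians were 45.7% and 46.4% over endothelial markers. Over the trophoblast markers described below they were 17.7% and 30.8%, which was nearer to Gata2.

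The other genes of the pathway went both ways between the tissues. Of 25 partners and further blood regulators, 12 of 23 tested were higher and 10 lower in earlier yolk sacs, and 11 of 22 were higher and 10 lower in later ones. Among all genes tested 38.5% and 39.1% were called higher. An unadjusted p under 0.05 in either direction was found for 80.2% and 82.0%, so a difference between the tissues was common. Ikzf1, a zinc finger factor of lymphoid and red cells, had the largest excess in yolk sacs among them, with log2 fold changes of 4.74 (SE 0.16) and 3.95 (SE 0.17). Etv2, the Ets factor that specifies endothelium and blood from mesoderm, was lower in yolk sacs, with log2 fold changes of -2.34 and -3.11 and means of 10.5 against 56.1 normalized counts in earlier and 5.83 against 55.1 in later concepti. Tcf12, an E protein that pairs with Tal1 and the most abundant gene of this list in embryos, was also higher in embryos, at 582 against 220 and at 577 against 180.

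Red cell genes were higher in yolk sacs in 22 of 23 tested at the earlier and in 24 of 25 at the later stage, led by the embryonic globin Hbb-bh1 with log2 fold changes of 8.08 (SE 0.23) and 5.64 (SE 0.40). Only 3 of these 23 and 7 of these 25 passed the filter within embryos, so that for the others a difference was built into their selection and the counts carry no weight. Endothelial markers were higher in 11 of 12 and in 10 of 12, beside 38.5% and 39.1% of all genes tested. Their steps were smaller, with Tek at 1.88 (SE 0.08) and 2.05 (SE 0.09). Of 10 megakaryocyte markers only Itga2b passed the filter, with log2 fold changes of 2.89 and 2.62. All 7 markers of adult blood were below the filter in all groups.

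Within yolk sacs the order of the levels was similar in the 4 groups, but few neighbours were clearly apart. Tal1 stood first, followed by Lmo2 and Klf1, then by Runx1, Gata1 and Gata2, by Nfe2 and Lyl1, and last by Gfi1b and Spi1. Of 72 pairs of neighbours in the orders of all 8 groups, 19 differed by more than the SD of the difference within libraries. In later normal yolk sacs Tal1 exceeded Klf1 in 16 of 16 libraries, whereas Klf1 and Lmo2 were not separated, with Klf1 higher in 7 of 16. In embryos Tal1 and Lmo2 came first, Gata2 followed, and the others lay at a few counts or less.

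The place of Gata1 and Runx1 in this order turned between the stages. Gata1 was the higher of the pair in 1 of 17 normal and 0 of 17 diabetic yolk sacs with 5 or 6 somite pairs and in 12 of 16 of each condition with 7 to 9. The mean difference within libraries, Gata1 less Runx1 on log2 of the normalized count plus 1, was -0.66 (SD 0.60) and -0.96 (SD 0.52) at the earlier stage and 0.32 (SD 0.51) and 0.39 (SD 0.58) at the later stage.

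Over both conditions 6 genes of 9 tested differed between the stages in yolk sacs, 3 higher and 3 lower at 7 to 9 somite pairs. Among all genes tested 20.7% were called higher and 19.7% lower, so a change with stage was common in this tissue. Gata1, Nfe2 and Lyl1 rose, and Runx1, Gata2 and Lmo2 fell. The mean of Gata1 went from 36.8 ± 11.3 (SD, n = 34) to 58.7 ± 23.7 (n = 32), a log2 fold change of 0.64 (SE 0.11, adjusted p = 6.1e-06). Nfe2 went from 15.4 ± 5.83 to 24.1 ± 11.4, a log2 fold change of 0.58 (SE 0.14, adjusted p = 3.9e-04). Lyl1 went from 11.9 ± 6.30 to 20.4 ± 9.00, a log2 fold change of 0.73 (SE 0.15, adjusted p = 1.2e-04). These rises were called in normal pregnancies alone and without litter D24M15 as well, where in normal pregnancies 4.82% of all genes were called higher in the stage comparison and 6.97% were called in the trend.

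Runx1 went the other way, from a median of 59.6 to one of 44.0 normalized counts, a log2 fold change of -0.53 (SE 0.12, adjusted p = 3.2e-04). In normal pregnancies alone the value was -0.51 with an adjusted p of 0.0568. Lmo2 went from a median of 97.4 to one of 83.0, or -0.33 on the log2 scale (SE 0.12, adjusted p = 0.0208). This call was lost with litter as a block (-0.26, adjusted p = 0.0826), without litter D24M15 (-0.26, adjusted p = 0.0850) and in normal pregnancies alone (-0.14, adjusted p = 0.587). Klf1, Tal1 and Gfi1b were not called, with log2 fold changes of 0.21 (95% confidence interval -0.01 to 0.42), 0.12 (-0.15 to 0.39) and 0.02 (-0.34 to 0.37).

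**Figure D3:**
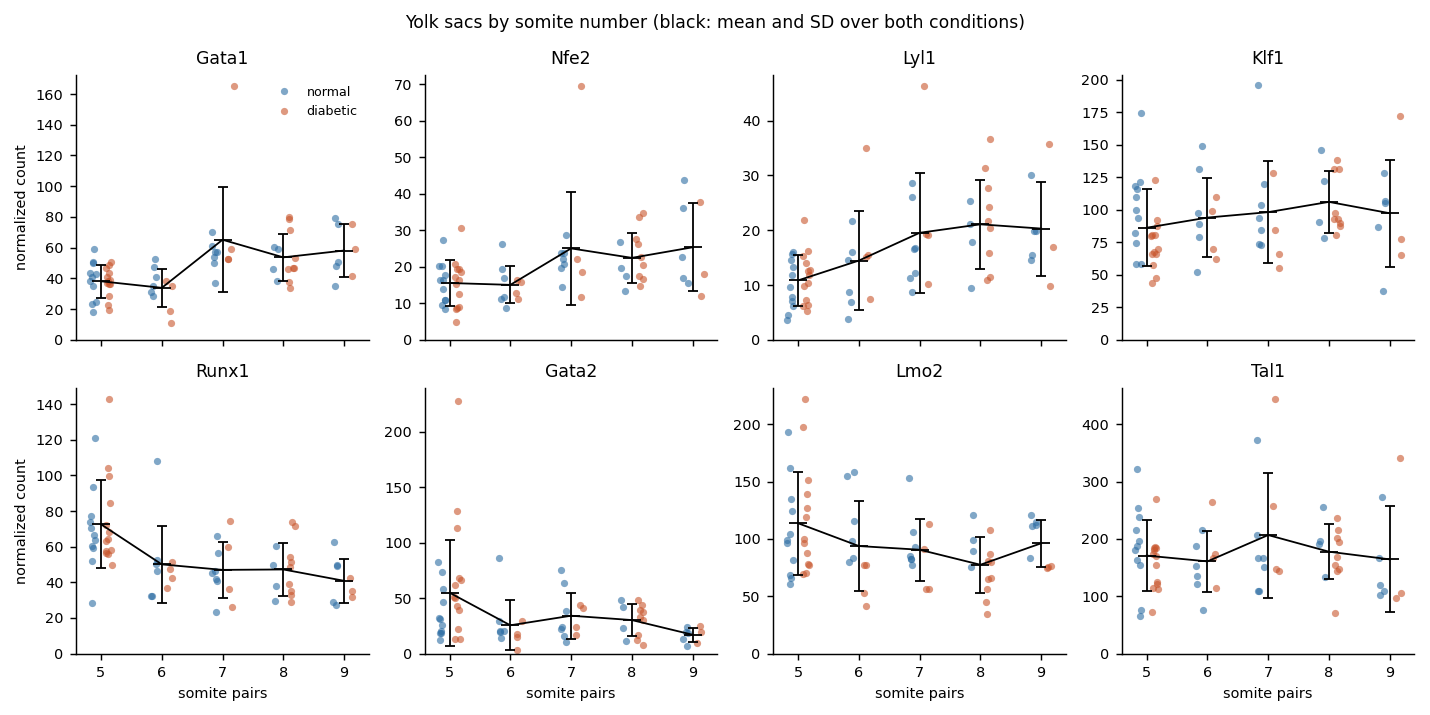
Normalized counts of 8 genes in the 66 yolk sacs are plotted against the number of somite pairs of the conceptus, with normal and diabetic pregnancies as separate points and the mean and SD over both in black. Gata1 steps up between 6 and 7 somite pairs, from a mean of 33.8 to 65.2, or a median of 35.2 to 57.3. The mean at 7 includes yolk sac D28M36C at 165. Runx1 steps down between 5 and 6, from a mean of 72.6 to 50.1.

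Taken by single somite pairs, most of the change fell between neighbouring counts. Gata1 averaged 38.1 at 5 and 33.8 at 6 somite pairs and then 65.2, 53.7 and 58.1 at 7, 8 and 9. Its medians were 35.2 at 6 and 57.3 at 7 somite pairs. The yolk sac of D28M36C, at 7 somite pairs, was the highest of its group in Gata1, Tal1, Nfe2 and Lyl1, with 165 for Gata1 from 50 counts, and without it the change of Gata1 with stage was 0.58 (adjusted p = 5.8e-06). Runx1 averaged 72.6 at 5 somite pairs and 50.1, 47.0, 47.2 and 40.8 at 6 to 9. As a trend per somite pair, the log2 change was 0.18 (SE 0.04) for Gata1, 0.18 (SE 0.05) for Nfe2, 0.26 (SE 0.05) for Lyl1, -0.20 (SE 0.04) for Runx1, -0.32 (SE 0.08) for Gata2 and -0.11 (SE 0.04) for Lmo2. The same 6 genes were called, beside 39.1% of all genes tested in this trend.

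The red cell genes listed moved toward higher levels at the same time. Of 26 tested, 14 were higher and 0 lower by edgeR at the later stage, beside 20.7% of all genes called higher and 19.7% lower. These shares also stand beside the counts of the lists that follow. In the trend 0 were lower as well, beside 39.1% of all genes called in either direction. The median log2 fold change of the 26 was 0.48 beside 0.00 over all genes. The embryonic globins Hbb-y and Hba-x rose by 1.67 (SE 0.22) and 1.58 (SE 0.16) on the log2 scale. The partners were more often lower than higher, at 8 against 2 of 23 tested, with Etv2 at -0.79 (SE 0.20) and Fli1, an Ets factor of endothelium and blood, at -0.47 (SE 0.08). Markers of visceral endoderm were higher in 8 of 10, endothelial markers higher in 6 and lower in 2 of 12, and of the 2 myeloid markers tested Mrc1 was higher.

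Gata2 fell from a mean of 46.2 ± 43.9 (SD, n = 34) to 28.2 ± 16.6 (n = 32) in yolk sacs, a log2 fold change of -0.65 (SE 0.24, adjusted p = 0.0262). The call was lost with litter as a block (-0.39, adjusted p = 0.221), without litter D24M15 (-0.69, adjusted p = 0.0558) and in normal pregnancies alone (-0.28, adjusted p = 0.601). Markers of trophoblast, the outer tissue that attaches the conceptus to the uterus, moved with it. Of 12 such markers, a list made after the values were seen, 7 were tested and 6 of these were lower at the later stage. Among all genes tested 19.7% were called lower. Tfap2c, Eomes and Cdx2 of the list are also known from embryos. Elf5, Tpbpa, Prl3d1, Prl2c2 and Gcm1 did not pass the filter. The summed level of the list ranged from 173 to 1366 and from 85.4 to 3258 in earlier normal and diabetic yolk sacs and from 93.8 to 572 and from 92.7 to 643 in later ones.

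The 3 yolk sacs highest in Gata2 were also the 3 highest in these markers. Conceptus D28M36B was at 228 for Gata2 and 3258 for the markers, D28M53B at 129 and 2058, and D28M53A at 113 and 1859, all 3 with 5 somite pairs and from diabetic dams. The embryos of these concepti were at 9.69, 11.1 and 5.64, within the range of other embryos, and Gata1 in the same yolk sacs was at 36.7, 39.2 and 38.2, near the middle of its group. Across the 66 yolk sacs, after removal of group means, the log2 level of Gata2 had a Pearson r of 0.80 with the marker sum and of -0.76 with visceral endoderm markers. These points share libraries and dams, and the coefficients are given as a description. With the marker level as a covariate the difference of Gata2 between the stages was 0.26 (adjusted p = 0.185). The differences of Gata1, Nfe2, Lyl1, Runx1 and Lmo2 were called in that fit. Since the list was made after the values were seen and varied with Gata2 in these same libraries, the fit is no test of trophoblast. The part of trophoblast in the level of Gata2 was not tested.

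**Figure D4:**
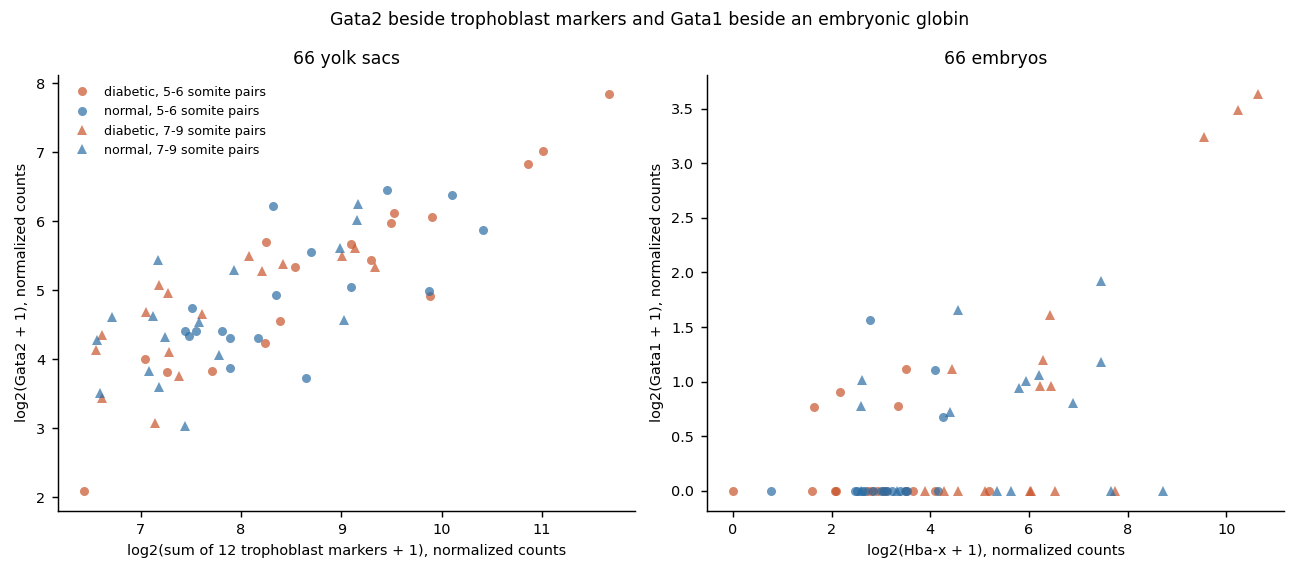
Left, log2(normalized count + 1) of Gata2 against that of the summed 12 trophoblast markers in 66 yolk sacs; right, Gata1 against the embryonic globin Hba-x in 66 embryos; color gives the maternal condition and the symbol the somite stage. The yolk sacs highest in Gata2 are highest in the markers, and the 3 embryos highest in Gata1, at 11.4, 10.2 and 8.44, are the 3 highest in Hba-x.

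In embryos 3 genes of the 10 passed the filter over both stages, and Tal1 rose, beside 14.3% of all genes called higher. Its mean went from 46.8 ± 16.4 (SD, n = 34) to 62.6 ± 16.8 (n = 32) normalized counts, a log2 fold change of 0.41 (SE 0.11, adjusted p = 0.00267), and its trend per somite pair was 0.15 (SE 0.04, adjusted p = 0.00168), beside 12.7% of all genes called with a rising trend. In normal pregnancies alone the change was 0.35 with an adjusted p of 0.135. Gata2 at -0.05 (95% confidence interval -0.42 to 0.32) and Lmo2 at -0.05 (-0.23 to 0.14) were not called. Of the endothelial markers 4 of 12 were higher and 0 lower by edgeR, 5 higher and 0 lower in the trend, and of 7 red cell genes tested 5 were higher and 1 lower.

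The low genes Gata1, Nfe2, Lyl1 and Klf1 were called higher in later embryos when the filter was dropped, beside 5.28% of all genes called higher in that test. The log2 fold changes were 2.44 (SE 0.46, adjusted p = 7.3e-05) for Gata1, 1.78 (SE 0.43, adjusted p = 0.00228) for Nfe2, 1.13 (SE 0.25, adjusted p = 9.5e-04) for Lyl1 and 1.17 (SE 0.37, adjusted p = 0.0267) for Klf1. The trend without the filter called the same 4 and Tal1, beside 4.63% of all genes called with a rising trend. DESeq2 called Gata1, Klf1, Tal1 and Lyl1 for the stage, beside 21.9% of all genes in either direction, all 4 higher in later embryos. In its trend, beside 19.4% of all genes, it called these 4 as rising and Runx1 as falling, at -0.27 per somite pair (SE 0.10, adjusted p = 0.0444). The values rest on few molecules. Gata1 had a count in 7 of 34 earlier and 18 of 32 later embryos, with means of 0.210 and 1.53 normalized counts.

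Much of the later mean came from 3 embryos, all from diabetic dams and from 3 litters. D28M36D had 17 counts of Gata1 (11.4 normalized), D28M23B had 6 (10.2) and D24M15G had 10 (8.44), and the next embryo in the order of Gata1, N28M05D of a normal dam, had 3 (2.80). Hba-x, an embryonic alpha-like globin, was at 1602, 1212 and 746 normalized counts in the 3 and at 176 in the next. The visceral endoderm transcript Afp was at 30.8, 541 and 734, beside a mean of 135 in later embryos, and so was low in D28M36D. What circulating red cells or yolk sac left on the embryo contributed was not tested.

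For the embryo D24M15G there was a second library, which was labelled as a duplicate and batch control and was not used above. At totals of 2535105 and 2626999 counts, Gata1 had 10 counts in the first and 0 in the second library, Hba-x 884 and 105, and Afp 870 and 273. Klf1 had 6 and 6 counts, Nfe2 3 and 2, Gata2 14 and 16, Lmo2 56 and 68 and Tal1 83 and 68. The yolk sac of the same conceptus, also duplicated, gave 68 and 72 counts of Gata1 and 6849 and 7173 of Hba-x. The yolk sac libraries thus agreed closely, and the embryo libraries differed in Gata1, Hba-x and Afp but not to that extent in the other genes named. The other duplicated embryo, N28M06C of the earlier stage, had 0 and 0 counts of Gata1, 48 and 11 of Hba-x and 271 and 255 of Afp. Whether the duplicates were made from the same RNA is not stated.

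A change with stage of the difference between tissues was called for Gata1 by edgeR. Gata1 had entered this test through its level in yolk sacs. Earlier embryos had a count of it in 7 of 34 libraries, at a mean of 0.210, so the value rests on few molecules. The interaction, the change of yolk sacs from the earlier to the later stage less that of embryos, was -1.80 on the log2 scale (SE 0.43, adjusted p = 0.00667), beside 1.47% of all genes called with a negative interaction. Nfe2 at -1.17 (adjusted p = 0.0764), Klf1 at -0.97 (adjusted p = 0.117) and Gfi1b at -1.24 (adjusted p = 0.131) were not called, and Runx1 was at 0.07 (95% confidence interval -0.36 to 0.50). Without the 3 embryos named above, their yolk sacs kept, the value for Gata1 was -0.73 with an adjusted p of 0.267. The call thus needed these embryos. They were chosen for their level of Gata1 after the data were seen, so a smaller interaction was built into this omission. With the duplicate of D24M15G in place of its first library it was -1.53 (adjusted p = 0.0239). In DESeq2, which called 1.75% of all genes with a negative interaction, Gata1 was at -1.92 (adjusted p = 0.00251) and Klf1 was also called, at -1.03 (adjusted p = 0.0460). Of 26 red cell genes 8 were called with a negative interaction by edgeR, with Hbb-y at -2.79 (SE 0.50) and Hba-x at -2.67 (SE 0.44). Most of the list had likewise entered through its level in yolk sacs. Of those tested between tissues, 3 of 23 at the earlier and 7 of 25 at the later stage passed the filter within embryos. The 3 embryos named above were also the highest in Hba-x, so these calls are not separate from that of Gata1.

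The effect of maternal diabetes was read in 4 comparisons, for 2 tissues at 2 stages. No gene of the 10 was called by edgeR in any of the 4 comparisons, nor by DESeq2 or with litter as a block. DESeq2 called 2.81% and 8.19% of all genes in earlier and later embryos and 0.0149% and 0.258% in yolk sacs, and with litter as a block the shares were 0.0364%, 2.95%, 0% and 0.00969%. In embryos only Tal1 and Lmo2 passed the filter. Neither was called, beside 1.46% of all genes called at 5 to 6 and 9.09% at 7 to 9 somite pairs. An unadjusted p under 0.05 was found for 0 of the 2 at either stage. Among all genes tested it was found for 2313 of 11004 in earlier and 2916 of 10628 in later embryos. In yolk sacs 9 genes were tested, and 1 at each stage had an unadjusted p under 0.05, beside 8.42% and 10.9% of all genes with such a p and 0% and 0.0194% called. The median log2 fold change of the 9 was -0.04 at 5 to 6 and 0.04 at 7 to 9 somite pairs, beside 0.00 and 0.02 over all genes tested.

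**Figure D5:**
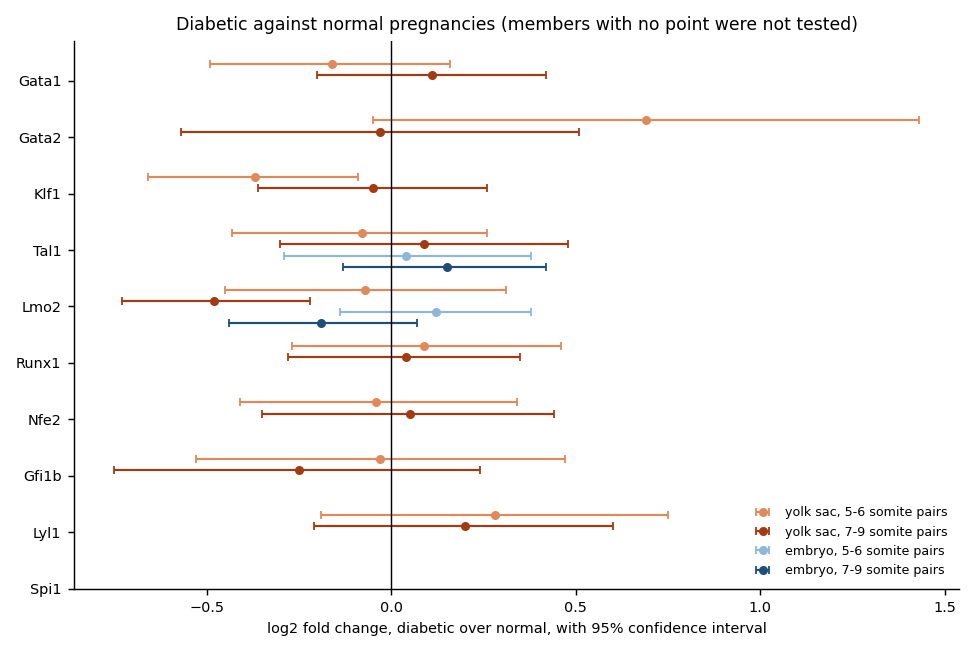
Points give the log2 fold change of diabetic over normal pregnancies from edgeR with 95% confidence intervals, for each tissue and stage in which a gene was tested. The intervals of all but Klf1 in earlier yolk sacs and Lmo2 in later yolk sacs include 0, and neither of these was called after adjustment.

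Klf1 in earlier yolk sacs averaged 100 ± 32.9 (SD, n = 17) in normal and 76.7 ± 21.1 (n = 17) in diabetic pregnancies, a log2 fold change of -0.37 (SE 0.14, p = 0.0117, adjusted p = 0.523), and -0.24 without litter N28M06. The groups overlapped over most of their range. At the later stage the value was -0.05 (95% confidence interval -0.36 to 0.26). Lmo2 in later yolk sacs averaged 100 ± 21.1 (n = 16) and 72.8 ± 21.1 (n = 16), a log2 fold change of -0.48 (SE 0.13, p = 5.0e-04, adjusted p = 0.191), and in DESeq2 the adjusted p was 0.0603. With counts summed per litter the value was -0.51 (adjusted p = 0.716). At the earlier stage Lmo2 was at -0.07 (-0.45 to 0.31).

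Gata2 in earlier yolk sacs averaged 35.8 ± 24.5 in normal and 56.7 ± 56.1 in diabetic pregnancies, a log2 fold change of 0.69 (SE 0.37, adjusted p = 0.616). Litters D28M36 and D28M53 held the 3 yolk sacs highest in Gata2, which were also highest in trophoblast markers. Without these litters the value was -0.13 (adjusted p = 0.968). They were chosen after the values were seen, and all 3 yolk sacs were diabetic, so a lower value was built into this omission. It is given as a description. The trophoblast markers themselves had a median log2 fold change of 0.95 in that comparison, none of 7 called by edgeR. For Gata1 the 95% confidence intervals were -0.49 to 0.16 at 5 to 6 and -0.20 to 0.42 at 7 to 9 somite pairs. Like the other intervals for diabetes, they count each conceptus as independent although concepti of a litter share a dam. They may therefore be too narrow, and no size of change is excluded by them. Tal1 had intervals of -0.43 to 0.26 and -0.30 to 0.48 in yolk sacs and in embryos they were -0.29 to 0.38 and -0.13 to 0.42, and Runx1 had intervals of -0.27 to 0.46 and -0.28 to 0.35 in yolk sacs. For Gfi1b, at about 10 counts, the intervals of -0.53 to 0.47 and -0.75 to 0.24 were wider.

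The low genes could not be compared well in embryos. Without the filter, Gata1 in later embryos was at 1.47 (SE 0.61, p = 0.0193, adjusted p = 0.180) and Nfe2 at 1.56 (SE 0.61, p = 0.0138, adjusted p = 0.153), and Klf1 in earlier embryos was at -1.15 (SE 0.42, p = 0.00898, adjusted p = 0.170). None was called, beside 1.05% of all genes called in earlier and 3.92% in later embryos. Gata1 had a count in 10 of 16 normal and 8 of 16 diabetic embryos at the later stage. The higher mean of diabetic embryos, 2.28 ± 3.93 against 0.774 ± 0.822, thus went with fewer embryos that had any count.

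No interaction with diabetes was called for any of these genes. For the stage, 0 of 9 genes in yolk sacs and 0 of 3 in embryos were called by edgeR, by DESeq2 or with litter as a block. By edgeR 0 had an unadjusted p under 0.05 in either tissue, beside 5.84% of all genes in yolk sacs and 28.1% in embryos. Of all genes 0% in yolk sacs and 8.70% in embryos were called by edgeR, with 0% and 8.93% by DESeq2 and 0% and 11.4% with litter as a block. For the tissue, 0 of 9 were called at either stage by edgeR and DESeq2, beside 0% of all genes in earlier and, by edgeR, 0.389% or, by DESeq2, 1.62% in later concepti. At an unadjusted p under 0.05 there were 0 genes at the earlier stage and 2 at the later stage, beside 7.66% and 17.7% of all genes. The 2 were Gata1 at -1.38 (SE 0.59, adjusted p = 0.200) and Nfe2 at -1.50 (SE 0.62, adjusted p = 0.185). A negative value means a smaller excess of diabetic over normal in yolk sacs than in embryos. Both genes entered this test through their level in yolk sacs.

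Across the 66 yolk sacs, after removal of group means, some of these genes varied together. The highest Pearson r among the 45 pairs were 0.66 for Tal1 with Lyl1, 0.59 for Gata1 with Nfe2, 0.57 for Klf1 with Tal1 and 0.54 for Gata1 with Gfi1b. The lowest were -0.37 for Gata2 with Lyl1 and -0.32 for Lmo2 with Spi1. The points share libraries, litters and the size factor, so these are descriptions. The correlation with the log2 total of the library lay between -0.27 for Lmo2 and 0.35 for Klf1.

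The genes most like each factor by this measure, out of 10277 genes that averaged 10 or more normalized counts in yolk sacs, are given as a description. For Tal1 they were Ank1 (r = 0.81) and Sptb (0.77), parts of the red cell membrane skeleton, and Slc25a37 (0.80), which imports iron into mitochondria. For Klf1 they were Fam210b (0.69), Alas2 (0.65), the first enzyme of heme synthesis in red cells, and Ell2 (0.64). Lyl1 was nearest to Add2 (0.74), Alad (0.71) and Slc25a37 (0.70), and Nfe2 to Hba-x (0.69), Cited4 (0.66) and Ikzf1 (0.61). With the summed level of the red cell genes listed, r was 0.54 for Klf1, 0.35 for Nfe2, 0.25 for Lyl1, 0.18 for Tal1 and 0.04 for Gata1. It was -0.03 for Lmo2, -0.13 for Gfi1b, -0.14 for Spi1, -0.40 for Runx1 and -0.41 for Gata2. The embryonic globins Hbb-bh1, Hba-x and Hbb-y, at means of 5774, 1914 and 1623 in earlier yolk sacs, weigh most in this sum.

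The remaining factors had other neighbours. Gata1 was nearest to Mief1 (0.69), Eif3b (0.64) and Reln (0.64), and Gfi1b to Cited4 (0.61), Itpr3 (0.59) and Thrap3 (0.58). Runx1 was nearest to Gse1 (0.70), Ybx3 (0.70) and Cbl (0.69), Lmo2 to Lyar (0.76), Tfec (0.75) and Orc6 (0.74), and Spi1 to Furin (0.66), Prkcsh (0.63) and Mepce (0.62). Gata2 had Satb1 (0.79) and Ldoc1 (0.78) among its nearest genes, neither of which was a red cell gene of the list.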

How the data were processed

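RNA from whole embryos and visceral yolk sacs was extracted with Trizol, made into libraries with a QuantSeq 3′ kit with molecular identifiers and sequenced on a NextSeq. The authors aligned the reads with STAR to mm10, collapsed duplicates by identifier, and obtained gene counts from HTSeq. Tool versions and the strand setting are not given in the sources used here. The deposited values are raw counts of molecules per gene, of which 15908 of 47643 genes had none.

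Groups were taken from the sample labels, and the 4 duplicate libraries entered no main test. Counts were tested with edgeR 4.0.16 in R 4.3.3 (quasi-likelihood, TMM scaling, filterByExpr with a minimum count of 10), with Benjamini-Hochberg adjustment over all genes tested and a call at an adjusted p under 0.05. Unless another tool is named, an adjusted p is from this test. Stage was compared with maternal condition in the model and tissue within each stage. Normalized counts were counts divided by the DESeq2 1.42.0 size factor. Correlations were taken on log2(normalized count + 1). The alternatives were RLE scaling, no filter, DESeq2, limma 3.58.1 with litter as a random block, sums per litter, covariates, each maternal condition alone and litters left out, each in turn for the diabetes comparisons. Scripts were tested on simulated data.

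By the labels, embryo and yolk sac of a number come from 1 conceptus and are paired by design, which the sex labels contradict for 2 of 66. Their deviations from the group means, over 10897 genes, correlated at a median r of 0.0716 (-0.334 to 0.540), above 0.1 in 31 of 66 concepti and in 30 of 64 without these 2.

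The genes and gene lists were chosen with earlier results of these data known, and the trophoblast list after its values had been seen. Genes named from a list were up to 4 called genes of largest fold change with a group mean of at least 10 normalized counts and the highest-counted gene. Further markers are named where their level stands beside a result. The neighbours of each factor were the 3 genes of highest r, of which 1 is not reported here. Counting error alone limits genes of a few counts.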

Additional observations from a re-analysis of the deposited data

Results flagged for a closer look

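For Gata1 the interaction of tissue and stage was called in edgeR (-1.80 on the log2 scale, SE 0.43, adjusted p = 0.00667). It had not passed the filter within embryos and was counted in 7 of 34 earlier and 18 of 32 later embryos, so this value rests on few molecules. Gata1 was higher in the yolk sac than in the embryo in 34 of 34 earlier and 32 of 32 later concepti, or in 33 of 33 and 31 of 31 without the 2 of unequal sex labels. The value was -0.73 (adjusted p = 0.267) without the 3 later embryos of highest Gata1, a choice made after the data were seen. It lay between -1.92 and -1.53 in the other alternatives, with adjusted p between 0.00251 and 0.0414.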

How the results depend on the processing

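The 8 genes tested between tissues were called higher in yolk sacs in each alternative in which they passed the filter. With the conceptus as a replicate block, for the pairing of embryo and yolk sac, the interaction of tissue and stage was -1.59 for Gata1, and -1.56 when the 2 concepti of unequal sex labels were also left out, and no other call changed among the genes tested by edgeR. The 0 calls for diabetes held in all alternatives. Most alternatives to single values, 1092 of 1174, left direction and call as they were. Causes of the changes below were not tested. Alternatives naming litters D28M36 and D28M53, yolk sac D28M36C, the trophoblast markers or the 3 embryos, and those leaving out the 2 concepti in the interaction or with the block, were chosen after seeing the data. Genes of a few counts per library limited what could be tested in embryos.

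Counts of called genes changed as follows. The stage comparison in embryos called 5 genes without the filter, 4 by DESeq2 and 0 in normal pregnancies alone, against 1, and the somite trend called 5, 5 and 0, against 1. In yolk sacs normal pregnancies alone gave 3 for the stage and 3 for the trend, against 6. The tissue by stage interaction gave 2 by DESeq2 and 0 without the 3 embryos, against 1.

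Directions turned only for log2 values that were small or named in the report. For diabetes in earlier embryos Tal1 was -0.03 with litter as a block and -0.09 with litter sums. In earlier yolk sacs Gfi1b was 0.05 with litter as a block and 0.02 without D28M36 and D28M53, Runx1 -0.02 with litter sums and -0.01 with somite number and sex, and without these litters Gata2 was -0.13 and Nfe2 0.08. In later yolk sacs Runx1 was -0.03 with litter as a block, -0.08 with litter sums and -0.01 with the title number, Nfe2 was -0.06, with litter as a block and also without D28M36C, and -0.01 with the title number, Gata2 was 0.01 with somite number and sex, and without D28M36C Gata1 was -0.01 and Tal1 -0.03. For stage in embryos, with litter as a block Gata2 was 0.00 and Lmo2 0.02, and Lmo2 was 0.10 in normal pregnancies and 0.03 without D24M15. For the trend there Gata2 was 0.01 and Lmo2 0.01 with litter as a block, 0.05 and 0.07 in normal pregnancies, and Lmo2 0.03 without D24M15. For stage in yolk sacs Gfi1b was -0.10 in diabetic pregnancies alone, and with the trophoblast level Gata2 was 0.26 and Gfi1b -0.07. For the trend in normal yolk sacs Klf1 was -0.01, Tal1 -0.03 and Gfi1b 0.00.

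With each litter left out in turn, the diabetes values that changed sign were Tal1 in earlier embryos (-0.03 to 0.12). In earlier yolk sacs they were Runx1 (-0.06 to 0.18), Nfe2 (-0.14 to 0.08), Gfi1b (-0.12 to 0.09) and Tal1 (-0.18 to 0.03). In later yolk sacs they were Klf1 (-0.17 to 0.03), Runx1 (-0.08 to 0.16), Nfe2 (-0.13 to 0.19), Gata2 (-0.25 to 0.16), Gata1 (-0.04 to 0.20) and Tal1 (-0.12 to 0.29).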
